A study of Homo sapiens with 18 samples.

Results

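Transcriptomes of osteosarcoma (OS) cells grown in a 3D cell-printed tissue (DP-3) were compared with those of the same line grown as flat 2D cells (D-2), both on day 14. The comparison was set by the sample labels, which give 3 DP-3 libraries and 3 D-2 libraries, 6 of the 18 in the series. The study asked how the culture environment changes gene expression in OS cells. Both groups carry the labels cell line Soas-2, which the study writes as Saos-2, genotype WT and treatment culture in vitro, and they differ in the label for the form of culture. D-2 was a flat culture. For DP-3, cells were mixed into a bioink of methacrylated gelatin and alginate, printed as a grid and hardened with blue light and a calcium salt. The other groups were 3D cells without printing (D-3, day 14), printed tissue on day 1, cultured isolated tumor tissue (IT) and fresh tumor tissue from mice (FIT). Of these, only the levels in D-3 and in printed tissue on day 1 are given here, with no test. The model is a single established cell line, and nothing in the labels says that the 3 libraries of a group came from separate cultures. The p-values therefore measure the spread between these libraries, which may be technical.

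A cell on a dish spreads on stiff plastic, pulls on it through integrins and actin cables, and meets medium and neighbors on a flat face. A cell in a hydrogel is held on all sides by a soft matrix, which it can remodel with secreted proteases and its own fibronectin and collagens. Tension on the actin network is read by SRF and by YAP with its TEAD partners, which drive cytoskeletal and matrix genes. Interferon-stimulated genes form another program, the antiviral response, in which sensors of foreign or misplaced nucleic acid lead to interferon release and, through its receptor, to factors that act on promoters.

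The estimated counts of the 6 libraries summed to between 60000387 and 79082786. The limit taken for detection was 12 estimated counts in a library, about 3 read pairs, which was between 0.152 and 0.2 CPM (counts scaled to library size). Expression is given as FPKM, which scales for gene length and library size, in the order of replicates 1, 2 and 3. Means are over 3 libraries with their SD, fold changes come from the fit to counts, and the error of a log2 fold change is its SE. DP-3 replicate 3 stood apart. Genes of the mitochondrial genome took 9.22% of its counts, against 4.34% in each of the other DP-3 libraries and 2.13% to 3.96% in D-2. Its correlation with the other DP-3 libraries over genes was 0.956, against 0.97 between those 2 and 0.973 to 0.976 within D-2. Between DP-3 and D-2 libraries the correlation was 0.947 to 0.965, a range that includes that 0.956.

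Markers of the bone lineage were at or near 0 in both groups, which goes against the label of an osteoblastic line. SP7 and IBSP were listed at 0 in all 6 libraries. ALPL, the alkaline phosphatase for which Saos-2 is known, reached no more than 0.148 FPKM and BGLAP no more than 0.0839 FPKM. RUNX2 was between 0.713 and 1.54 FPKM, COL1A1 between 3.23 and 5.02 FPKM, and SPP1 at most 1.37 FPKM. Many markers of immune, endothelial, epithelial, fat and muscle cells were low too. PTPRC reached 0.0355 FPKM, CDH5 0.104 FPKM and EPCAM 0.0979 FPKM, and ADIPOQ and MYH1 were listed at 0 throughout. Exceptions were CD68, a lysosomal protein also found outside macrophages, at 41.1 to 46.6 FPKM in 4 libraries, 55.2 in DP-3 replicate 2 and 115 in DP-3 replicate 3, SOX9 at 17.7 to 26.5 FPKM and the keratin KRT18 at 14.7 to 25.5 FPKM. PECAM1, an endothelial marker, was at 1.41 to 1.58 FPKM, CSF1R, a macrophage receptor, at 1.01 to 1.85 FPKM and the keratin KRT8 at 2.2 to 3.16 FPKM, levels at or above those of RUNX2 in most libraries. FABP4, a fatty acid carrier, was at 8.53, 0.709 and 1.5 FPKM in DP-3 and at a mean of 0.206 ± 0.0868 FPKM in D-2. The part of such cells, and of the mitochondrial share, in the results was not tested.

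Of 50119 genes listed, 18549 reached 0.1 FPKM in at least 3 of the 6 libraries and were tested. The quasi-likelihood test of edgeR found 193 differentially expressed genes (DEGs), which had an adjusted p (Benjamini-Hochberg, over all genes tested) below 0.05 and a change of at least 2-fold. In DP-3, 134 were upregulated (0.722% of genes tested) and 59 downregulated (0.318%), and the 3 DP-3 libraries did not overlap the 3 D-2 libraries for any of the 193. Of the DEGs, 155 were protein-coding genes. For 14, every library of a group was at or under the limit of detection, and their fitted fold change is no measure of size. Without regard to size, 437 genes had an adjusted p below 0.05. At an unadjusted p below 0.05, 12% of genes were higher and 10.7% lower in DP-3, 22.7% in all. The groups did not overlap for 17.5% of genes with DP-3 higher and for 13.4% with DP-3 lower. DESeq2 called 2.74% up and 0.906% down, and limma on log2(FPKM + 0.1) called 0.555% up and 0.194% down. The median log2 fold change of all genes was 0.03.

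**Figure D1:**
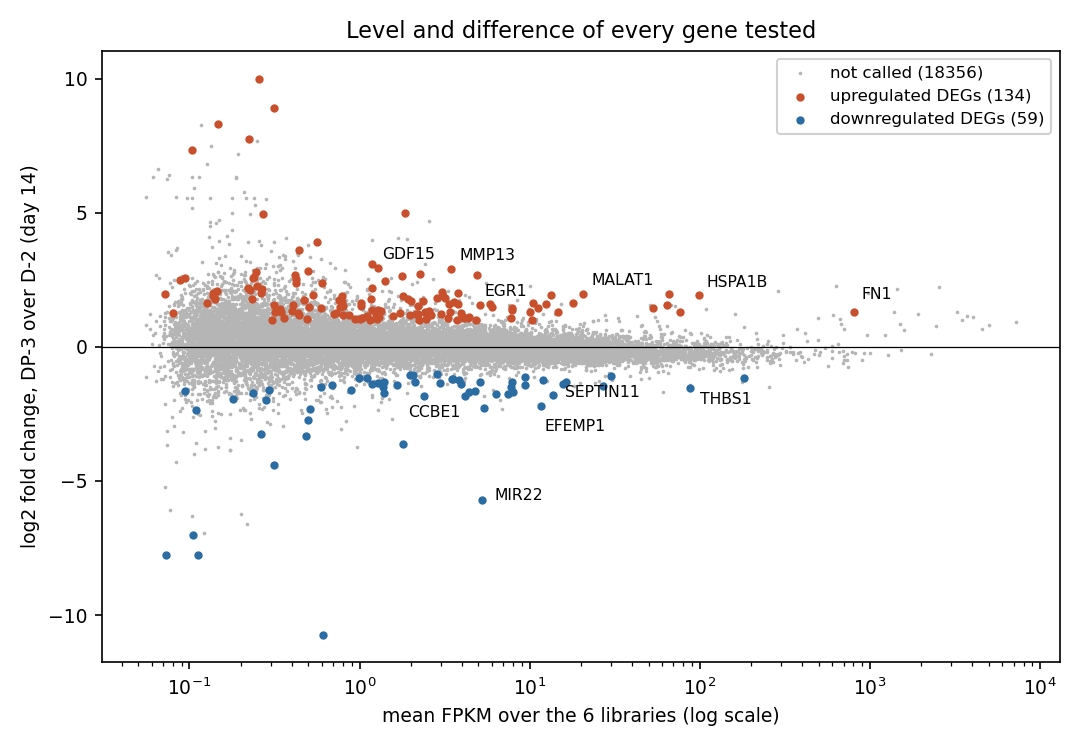
Each point is a gene tested, placed by its mean FPKM over the 6 libraries (log scale) and its log2 fold change in DP-3 over D-2, with the 134 upregulated DEGs in red and the 59 downregulated DEGs in blue. DEGs span low to high levels, with FN1 the upregulated DEG at the highest level, and the points beyond 7 in either direction are genes with a mean under 1 FPKM, many of them at or near 0 in a group, whose fitted change is no measure of size.

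The number of DEGs depended on single libraries. Without D-2 replicate 1, 2 or 3 it was 20, 3 or 17, and without DP-3 replicate 1, 2 or 3 it was 70, 105 or 223. Only SLFN5, CCBE1 and SEPTIN11 were called in all 6 of these fits, and 38 of the 193 were called in none. Of the 193, DESeq2 also called 188 and limma on log2(FPKM + 0.1) 104.

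**Figure D2:**
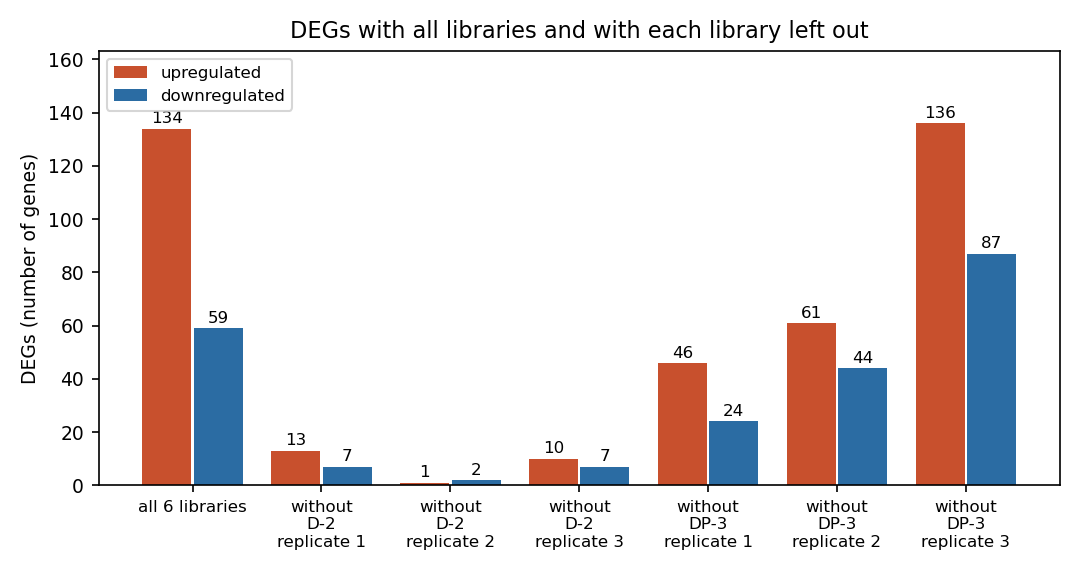
Bars give the number of upregulated (red) and downregulated (blue) DEGs with all 6 libraries and with each library left out. Leaving out any D-2 library lowered the total to 20 or fewer, while leaving out DP-3 replicate 3 raised it to 223.

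The genes of most change that were above 0 in every library and reached 5 FPKM in a group were named by rule, 12 in each direction. The 3 called whatever library was left out come first. Positions are those of the deposited files, whose build was not stated and whose gene positions matched GENCODE release 29 on GRCh38. SLFN5 (ENSG00000166750, chromosome 17, 35243071 to 35273655, plus strand), a Schlafen family protein, was at 1.73, 1.63 and 1.6 FPKM in D-2 and at 5.15, 5.38 and 4.65 FPKM in DP-3, where it was upregulated 3-fold (log2 fold change 1.58 ± 0.0906, adjusted p = 0.00222). Its mean in D-3 was 5.41 ± 1.56 FPKM. CCBE1, a secreted protein needed for lymphatic vessel growth, was at 9.98, 8.4 and 8.28 FPKM in D-2 and at 1.88, 2.08 and 1.55 FPKM in DP-3. It was downregulated 4.93-fold (adjusted p = 0.00222). SEPTIN11, a component of septin filaments under the cell membrane, was at 19.5, 22.4 and 21.7 FPKM in D-2 and at 5.8, 6.54 and 6.13 FPKM in DP-3, a 3.5-fold downregulation (adjusted p = 0.00222). The groups were separated widely for all 3 genes, and the DP-3 libraries lay close together.

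Most list members changed little, and the lists differed in which way they leaned. Before the details, the plot of the 29 lists shows how far each leaned against the median of all genes.

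**Figure D3:**
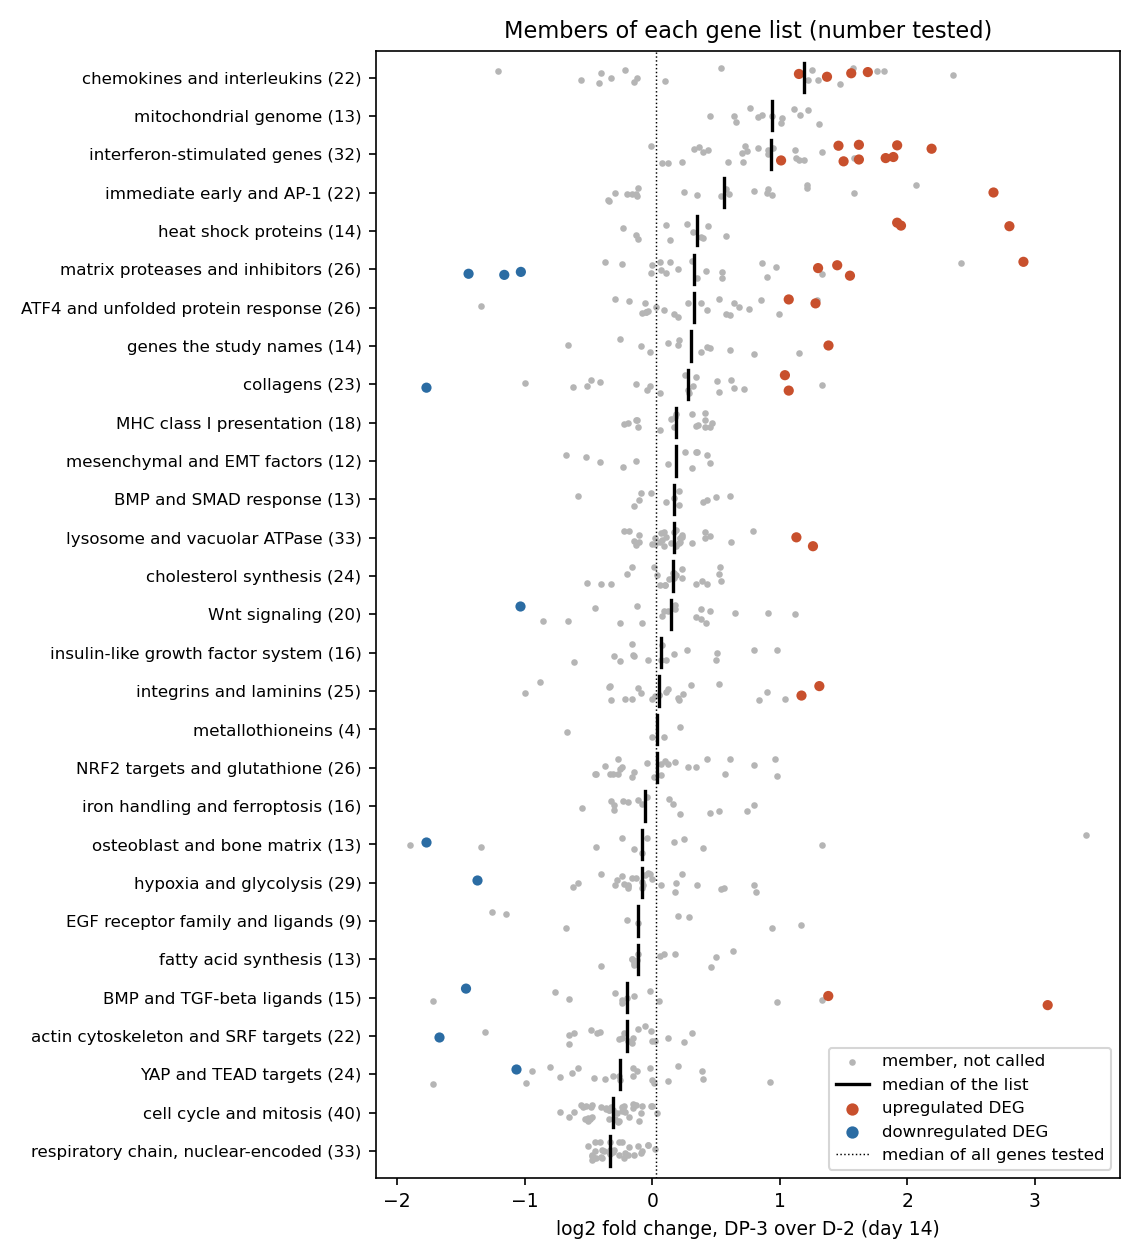
Each point is a gene of the list named at left, placed by its log2 fold change in DP-3 over D-2, with DEGs in color, the list's median as a black bar and the median of all genes (0.03) as a dotted line. Chemokines and interleukins, the mitochondrial genome and interferon-stimulated genes had the highest medians (1.19, 0.94 and 0.93), and cell cycle genes and nuclear-encoded respiratory chain subunits the lowest (-0.31 and -0.33). The order of the highest rests on single libraries, the first 3 medians being 0.68, 1.17 and 0.74 without DP-3 replicate 2, and that of the mitochondrial genome 0.32 without DP-3 replicate 3.

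Interferon-stimulated genes had the largest share of members upregulated among the lists. Of 32 members tested, 9 were upregulated (28.1%, against 0.722% of all genes) and none downregulated, 31 were higher in DP-3, and the median log2 fold change was 0.93. The groups did not overlap for 20 members, each with DP-3 higher, against 17.5% of all genes. DESeq2 called 14 members (against 2.74% of all genes) and limma on log2(FPKM + 0.1) called 7 (against 0.555%). In a bulk RNA sample, a change in the share of cells that express a gene and a change in RNA per cell cannot be told apart.

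The promoters of 4 of the upregulated members are shown, since the factors that interferon activates read a known element there. The letters searched were GAAANNGAA and, for the other strand, TTCNNTTTC, and matches may overlap. Capitals mark a match. The sequences are RefSeq's on build GRCh38.p14, 5′ to 3′ on the gene's strand. Each is the longest stretch in the 250 bases before the start without a GENCODE release 29 exon, or its last 200 bases. Of the 4 matches in the IFIH1 window, 1 lies in the stretch shown. IFIH1 is shown at chr2:162318704-162318839 (minus strand), IFIT3 at chr10:89327747-89327893 (plus), IFI44 at chr1:78649589-78649788 (plus) and IFIT1 at chr10:89392373-89392545 (plus).
IFIH1: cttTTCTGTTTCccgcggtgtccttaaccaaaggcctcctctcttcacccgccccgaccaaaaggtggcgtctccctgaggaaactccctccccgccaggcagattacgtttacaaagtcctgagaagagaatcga
IFIT3: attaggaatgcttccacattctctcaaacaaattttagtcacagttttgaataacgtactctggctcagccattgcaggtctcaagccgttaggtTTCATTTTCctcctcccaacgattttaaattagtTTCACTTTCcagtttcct
IFI44: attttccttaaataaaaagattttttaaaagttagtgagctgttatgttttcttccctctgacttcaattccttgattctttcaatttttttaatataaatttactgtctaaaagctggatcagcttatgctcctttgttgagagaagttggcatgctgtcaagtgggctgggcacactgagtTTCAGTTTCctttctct
IFIT1: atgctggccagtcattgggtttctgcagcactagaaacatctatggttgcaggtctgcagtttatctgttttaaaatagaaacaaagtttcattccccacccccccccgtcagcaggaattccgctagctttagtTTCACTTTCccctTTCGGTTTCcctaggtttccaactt

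In the 250 bases before the start, 1927 of 27305 promoters held these letters (7.06%). Promoters were matched for 24 of the 32 members tested, and 16 held them (66.7%). Among upregulated members 5 of 6 held them (83.3%), and among the other members 11 of 18 (61.1%). RSAD2 held a match that lies inside the first exon of CMPK2 on the opposite strand and is not shown. STAT2 held none in this window. A match is a run of letters and does not show that a factor was bound.

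Among the sensors and effectors, IFIH1, which detects double-stranded RNA, was at 0.879, 0.574 and 0.779 FPKM in D-2 and at 3.05, 3.22 and 2.23 FPKM in DP-3 (3.71-fold, adjusted p = 0.0163). OAS2, which makes the signal that activates RNase L, was at 0.441, 0.425 and 0.388 FPKM in D-2 and at 1.75, 2.81 and 1.34 FPKM in DP-3 (4.57-fold, adjusted p = 0.0193). OASL, its relative without that activity, was at 5.87, 4.57 and 4.58 FPKM in D-2 and at 18.7, 16.6 and 12 FPKM in DP-3 (3.07-fold, adjusted p = 0.0153). All DP-3 libraries were above all D-2 libraries for these genes, and DP-3 replicate 3 was the lowest of the 3.

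The IFIT proteins bind foreign RNA and block its translation. IFIT2 was at 6.12, 5.7 and 4.54 FPKM in D-2 and at 28.4, 20.8 and 14.1 FPKM in DP-3 (3.77-fold, adjusted p = 0.0198). IFIT3 was at 9.33, 9.36 and 7.33 FPKM in D-2 and at 32.7, 28.6 and 20.7 FPKM in DP-3 (3.08-fold, adjusted p = 0.0153). IFIT1 was at 6.59, 5.55 and 5.47 FPKM in D-2 and at 17.8, 19.6 and 12.1 FPKM in DP-3 (adjusted p = 0.0167). RSAD2, or viperin, was at 1.29, 1.3 and 1.09 FPKM in D-2 and at 5.68, 4.88 and 2.9 FPKM in DP-3 (3.56-fold, adjusted p = 0.0218). The remaining upregulated members were IFI44, at a mean of 3.04 FPKM in D-2 and 8.89 in DP-3, and STAT2, at 3.15 and 6.48. IFIT2 and IFIT3 overlap LIPA, RSAD2 overlaps CMPK2 and OAS2 overlaps AC004551 on the opposite strand, and whether the counting used the strand was not stated.

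DP-3 replicate 3, the library with the highest mitochondrial share, had the lowest level of the DP-3 libraries for all 9 upregulated members. Without it 12 members were upregulated. Without DP-3 replicate 1 or 2 there were 5 or 6, and without D-2 replicate 1, 2 or 3 there were 0, although the median then remained between 0.91 and 1.04. Members with high levels that were not called included ISG15, at 34.2, 33.4 and 32.6 FPKM in D-2 and at 90.5, 102 and 32.9 FPKM in DP-3, where replicate 3 lay within the D-2 range. ISG15 and STAT2 were named after their values were seen. Several members were higher still on day 1 of the printed tissue. IFIT2 was then at 55.5 ± 1.67 FPKM, OASL at 38.2 ± 1.41 FPKM and RSAD2 at 17.9 ± 0.594 FPKM, whereas OAS2 was at 1.81 ± 0.257 FPKM, near its level on day 14. D-3, without printing, also had means above D-2. IFIH1 was at 3.66 ± 0.961 FPKM and OAS2 at 2.47 ± 1.3 FPKM in D-3, above their DP-3 means. IFIT2 (12.1 ± 4.7 FPKM), IFIT3 (18 ± 7.27 FPKM), OASL (8.77 ± 4.37 FPKM) and RSAD2 (2.63 ± 2.24 FPKM) lay between the D-2 and DP-3 means.

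Chemokines and interleukins, the signals that recruit and activate leukocytes, had 4 of 22 members tested upregulated (18.2%, against 0.722% of all genes) and none downregulated. The median log2 fold change was 1.19, with 14 members higher and 8 lower, and it was 0.68 without DP-3 replicate 2, 0.83 without DP-3 replicate 3 and 0.84 without D-2 replicate 1. CXCL8, which attracts neutrophils, was at 4.51, 4.54 and 3.84 FPKM in D-2 and at 13.2, 11.1 and 9.78 FPKM in DP-3 (2.59-fold, adjusted p = 0.0149). CCL5, which attracts T cells and monocytes, was at 2.76, 2.34 and 2.52 FPKM in D-2 and at 7.25, 6.8 and 8.88 FPKM in DP-3 (2.95-fold, adjusted p = 0.0177). CXCL2 was at 0.859, 0.837 and 1.12 FPKM in D-2 and at 2.91, 2.88 and 3.48 FPKM in DP-3 (3.22-fold, adjusted p = 0.0282). The groups were well apart for these 3 and for CSF2, or GM-CSF, which rose 2.22-fold (adjusted p = 0.0463). CSF2 was not called when any library was left out. DESeq2 called 9 members as upregulated (against 2.74% of all genes) and limma on log2(FPKM + 0.1) 4 (against 0.555%).

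Levels of the other cytokines went both ways. IL6 was at 0.62, 0.733 and 0.37 FPKM in D-2 and at 1.67, 1.26 and 2.32 FPKM in DP-3, but its adjusted p was 0.0729. CSF1, the macrophage growth factor and the member with the highest level, was at 30.9, 32.8 and 28.4 FPKM in D-2 and at 35.4, 24.9 and 39.7 FPKM in DP-3. No member was called without D-2 replicate 1, 2 or 3. Without DP-3 replicate 1, 2 or 3 there were 2, 2 or 4, with CSF2 never among them. IL6 and CSF1 were named after their values were seen. CXCL8 was at 19.1 ± 8.45 FPKM in D-3 and at 1.75 ± 0.15 FPKM on day 1 of the printed tissue, below its level in D-2.

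**Figure D4:**
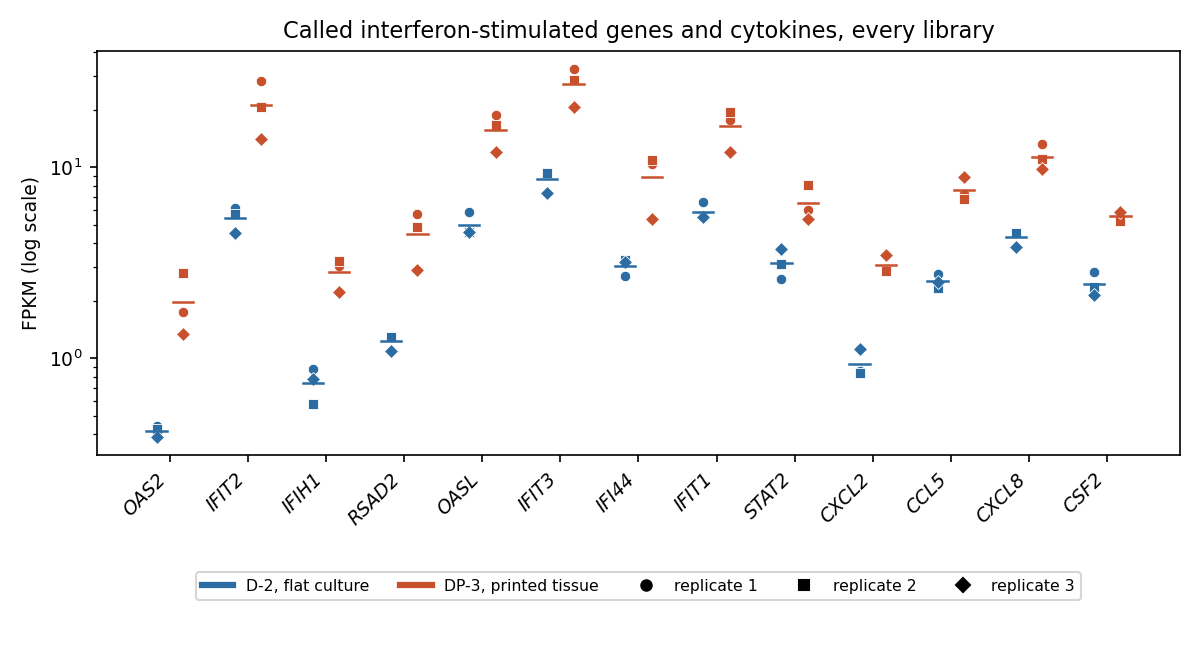
FPKM (log scale) of the 9 upregulated interferon-stimulated genes and the 4 upregulated cytokines in each library, D-2 in blue and DP-3 in red, with a bar at each mean and a marker shape for each replicate. The DP-3 libraries lie above the D-2 libraries for all of these genes, and replicate 3 (diamond) is the lowest DP-3 library for each interferon-stimulated gene.

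Matrix proteases and their inhibitors changed in both directions. Of 26 members tested, 4 were upregulated (15.4%, against 0.722% of all genes) and 3 downregulated (11.5%, against 0.318%). MMP13, a collagenase of cartilage and bone, was at 0.924, 0.743 and 0.74 FPKM in D-2 and at 7.06, 3.94 and 7.37 FPKM in DP-3 (7.52-fold, adjusted p = 0.0141). MMP1, the interstitial collagenase, was at 27.1, 28 and 28.8 FPKM in D-2 and at 84.3, 95 and 56.3 FPKM in DP-3 (2.74-fold, adjusted p = 0.0165). MMP13 lies on chromosome 11, 102942995 to 102955732 (minus strand), and the groups were far apart for both genes. TIMP2, an inhibitor of these enzymes that also takes part in activating MMP2, was at 25.5, 28.1 and 43.4 FPKM in D-2 and at 86, 92.2 and 111 FPKM in DP-3 (2.93-fold, adjusted p = 0.0298). SERPINE2, an inhibitor of thrombin and plasminogen activators, was also upregulated (mean 43.6 FPKM in D-2 and 109 in DP-3, adjusted p = 0.0436).

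The downregulated members included a pair of proteases. PLAT, the tissue plasminogen activator, was at 3.96, 3.74 and 3.79 FPKM in D-2 and at 1.87, 2.07 and 1.8 FPKM in DP-3 (adjusted p = 0.012). ADAMTS6 was at 2.43, 2.4 and 2.43 FPKM in D-2 and at 0.808, 1.19 and 0.734 FPKM in DP-3 (2.72-fold lower, adjusted p = 0.0193). PLAT and SERPINE2 fell outside the naming rule and were chosen after their values were seen. Without D-2 replicate 1, 2 or 3 the members upregulated were 0, 0 or 1 and those downregulated 0, 0 or 1. Without DP-3 replicate 1, 2 or 3 they were 2, 3 or 3 upregulated and 1, 3 or 3 downregulated. MMP13 was at 0.664 ± 0.27 FPKM on day 1 of the printed tissue and at 2.08 ± 0.928 FPKM in D-3, both under its level in DP-3 on day 14. MMP1 was at 21.2 ± 0.627 FPKM on day 1 of the printed tissue. In D-3 it was at 74.9 ± 27 FPKM, near its DP-3 mean of 78.5 ± 20 FPKM.

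FN1, fibronectin, the main ligand laid down for integrins, was the upregulated gene with the highest level. It was at 422, 476 and 470 FPKM in D-2 and at 1070, 853 and 1520 FPKM in DP-3 (2.49-fold, log2 fold change 1.31 ± 0.231, adjusted p = 0.0411), with the groups apart. ITGA1, the collagen-binding integrin α1 chain, was at 1.21, 1.19 and 1.22 FPKM in D-2 and at 2.73, 2.39 and 3.14 FPKM in DP-3 (2.25-fold, adjusted p = 0.0167). It shares its locus and strand with PELO, so reads between the 2 may be split. These were the 2 upregulated genes (8%, against 0.722% of all genes) among 25 integrins, laminins and related ligands tested, whose median log2 fold change was 0.05. Leaving out D-2 replicate 1, 2 or 3 left no member called, without DP-3 replicate 1 there was 1, and without DP-3 replicate 2 or 3 there were 2. On day 1 of the printed tissue FN1 was at 503 ± 5.73 FPKM, near its D-2 level. In D-3 it was at 687 ± 120 FPKM, between the D-2 and DP-3 means.

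Collagens were mixed as well, with 2 of 23 upregulated (8.7%, against 0.722%) and 1 downregulated (4.35%, against 0.318%). COL1A2, a chain of type I collagen, was at 11.5, 11.1 and 11.9 FPKM in D-2 and at 3.27, 4.73 and 2.39 FPKM in DP-3 (3.41-fold lower, adjusted p = 0.0178). COL1A1, its partner chain, was at 3.56, 4.23 and 4.77 FPKM in D-2 and at 3.23, 4.11 and 5.02 FPKM in DP-3, a log2 fold change of -0.04 (adjusted p = 0.921). The COL1A2 groups were far apart, and the COL1A1 groups overlapped. COL4A5 and COL4A6, basement membrane chains whose genes share a start region on chromosome X, rose 2.05-fold and 2.09-fold (adjusted p = 0.0284 and 0.0318). COL4A5 was at 0.617, 0.605 and 0.605 FPKM in D-2 and at 1.51, 1.22 and 1.1 FPKM in DP-3. The common basement membrane chains COL4A1 and COL4A2 had log2 fold changes of -0.51 and -0.62 (adjusted p = 0.0505 and 0.0577), with every DP-3 library below every D-2 library. Type VI collagen had the highest levels of the list, COL6A1 being at 160, 177 and 183 FPKM in D-2 and at 248, 217 and 292 FPKM in DP-3 (adjusted p = 0.103). Without D-2 replicate 1, 2 or 3 or DP-3 replicate 1 no collagen was called. Without DP-3 replicate 2 there were 2 downregulated and none upregulated, and without DP-3 replicate 3 there were 3 upregulated and 1 downregulated. COL1A1, COL4A1, COL4A2 and COL6A1 were named after their values were seen.

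**Figure D5:**
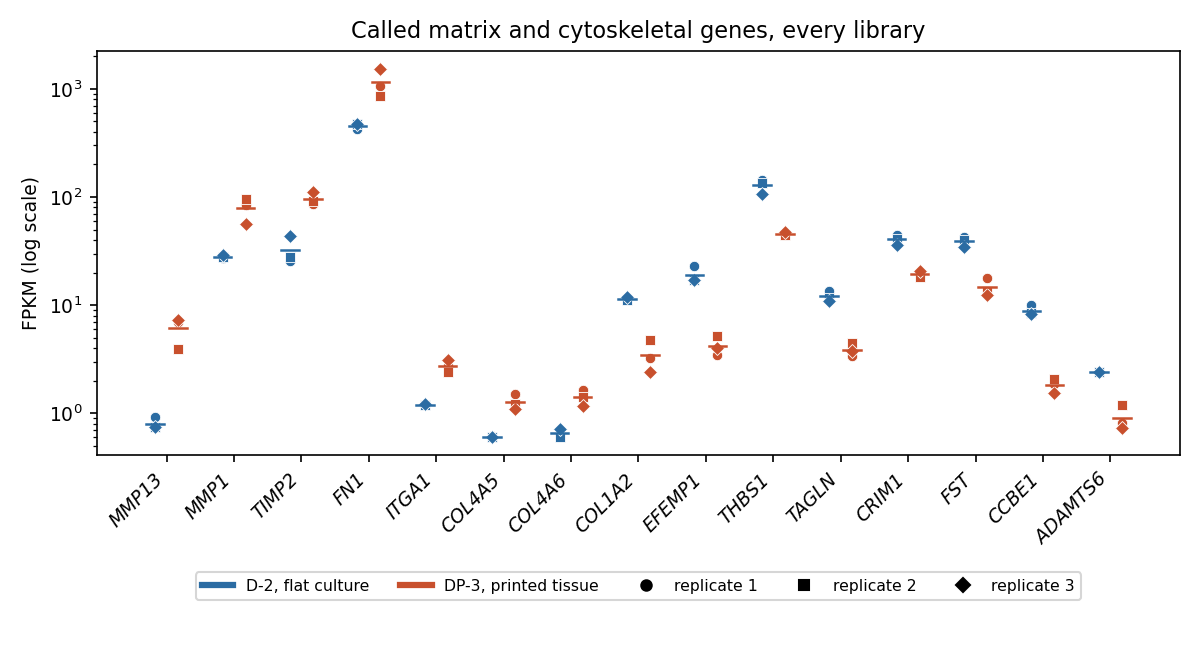
FPKM (log scale) of called matrix and cytoskeletal genes in each library, D-2 in blue and DP-3 in red, with a bar at each mean and a marker shape for each replicate. From MMP13 to COL4A6 the DP-3 libraries lie above the D-2 libraries, and from COL1A2 to ADAMTS6 they lie below.

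The list of actin and SRF targets leaned lower in DP-3, and tension itself was not measured. TAGLN, or transgelin, an actin-binding target of SRF, was at 13.4, 11.7 and 11 FPKM in D-2 and at 3.37, 4.46 and 3.73 FPKM in DP-3 (3.18-fold lower, log2 fold change -1.67 ± 0.132, adjusted p = 0.00838). It was the only called gene among 22 actin and SRF targets (4.55%, against 0.318%). Of these, 17 were lower, and the median log2 fold change was -0.2, against 0.03 for all genes. Without D-2 replicate 2 TAGLN was not called, and without DP-3 replicate 3 there were 2 downregulated members. TAGLN was low in D-3 (3.46 ± 0.566 FPKM) and on day 1 of the printed tissue (2.99 ± 0.25 FPKM) too. Its counts may include reads of AP000892, which overlaps it on the same strand.

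Among 24 YAP and TEAD targets, CRIM1, a membrane protein that binds BMPs, was the only gene called (4.17%, against 0.318%). CRIM1 was at 44.1, 41.1 and 36.2 FPKM in D-2 and at 19.5, 18.4 and 20.7 FPKM in DP-3 (2.11-fold lower, adjusted p = 0.0153). Of the list, 17 members were lower and 12 did not overlap between groups with DP-3 lower (against 13.4% of all genes), and the median log2 fold change was -0.25, or -0.38 without DP-3 replicate 3. Adjusted p was below 0.05 for 4 members, all lower (against 437 of 18549 genes tested, in either direction). Of these, AXL, DLC1 and FJX1 were lower by less than 2-fold. AXL, a receptor tyrosine kinase, was at 162, 158 and 148 FPKM in D-2 and at 93.2, 101 and 79.9 FPKM in DP-3 (adjusted p = 0.0178). CCN1, or CYR61, a classic target, was at 116, 131 and 109 FPKM in D-2 and at 94.9, 85.5 and 112 FPKM in DP-3 (adjusted p = 0.255). With any D-2 library left out no YAP or TEAD target was called, without DP-3 replicate 1 or 2 there was 1 downregulated, and without DP-3 replicate 3 there were 4 downregulated and 1 upregulated. AXL, DLC1, FJX1 and CCN1 were named after their values were seen.

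Several downregulated DEGs by the rule were secreted or matrix proteins. THBS1, thrombospondin 1, which activates latent TGF-β, was at 144, 136 and 106 FPKM in D-2 and at 44.3, 44.8 and 47.9 FPKM in DP-3 (2.87-fold lower, adjusted p = 0.012). EFEMP1, or fibulin-3, was at 22.9, 17 and 17.1 FPKM in D-2 and at 3.45, 5.23 and 4.02 FPKM in DP-3 (4.57-fold lower, adjusted p = 0.0114). FST, follistatin, which traps activin, was at 42.9, 40.4 and 34.2 FPKM in D-2 and at 17.7, 13.5 and 12.5 FPKM in DP-3 (2.75-fold lower, adjusted p = 0.0148). For these 3 genes the printed tissue on day 1 was already low, at means of 28.5, 5.33 and 14.7 FPKM. D-3, without printing, was low too, at means of 18.9, 5.79 and 15.7 FPKM. THBS1 overlaps AC037198 on both strands.

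BMP and TGF-β ligands and their binding proteins had 2 of 15 members upregulated (13.3%, against 0.722%) and 1, FST, downregulated (6.67%, against 0.318%). BMP2, a bone-inducing ligand, was at 0.587, 0.814 and 0.533 FPKM in D-2 and at 1.99, 1.61 and 1.54 FPKM in DP-3 (2.6-fold, adjusted p = 0.0386). GDF15, a secreted stress signal, was at 0.303, 0.221 and 0.199 FPKM in D-2 and at 1.57, 1.44 and 3.38 FPKM in DP-3 (8.56-fold, adjusted p = 0.0286). Its groups were apart at low levels, and D-3 was far higher (46.2 ± 23.5 FPKM). TGFB1, the ligand with the highest level, was at 70.8, 71.1 and 72.5 FPKM in D-2 and at 71.1, 58.9 and 95.5 FPKM in DP-3 (log2 fold change 0.05). TGFB1 was named after its values were seen. With any D-2 library left out no member was called. Without DP-3 replicate 1, 2 or 3 there were 0, 1 or 2 upregulated and 1, 1 or 2 downregulated.

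The targets of BMP signaling showed no DEG. Among 13 BMP and SMAD response genes, edgeR, DESeq2 and limma on log2(FPKM + 0.1) each called 0, 2 had an unadjusted p below 0.05, both higher (against 12% of all genes), and the median log2 fold change was 0.17, or 0.02 without DP-3 replicate 1. ID1 was at 124, 130 and 113 FPKM in D-2 and at 133, 126 and 93.7 FPKM in DP-3. ID3 was at 232, 226 and 230 FPKM in D-2 and at 333, 248 and 234 FPKM in DP-3. ID1 overlapped between the groups, and the lowest DP-3 value of ID3 lay just above the D-2 values.

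The 15 genes the study names were picked by its authors from comparisons that include these libraries, so their count is not independent evidence. Those comparisons set each culture against FIT, not DP-3 against D-2, so the values below neither repeat nor contradict the study's calls. LEFTY1 was below the minimum, and of the 14 tested BMP2 was upregulated (7.14%, against 0.722%). It was not called without D-2 replicate 1, 2 or 3 or DP-3 replicate 1 or 2. WNT10B, a Wnt ligand, had an adjusted p of 0.0463 but changed by less than 2-fold. WNT10B was at 5.54, 5.42 and 5.22 FPKM in D-2 and at 3.28, 3.54 and 3.59 FPKM in DP-3. HMOX1, which breaks down heme, was at 35.7, 33.5 and 29 FPKM in D-2 and at 72.5, 49.2 and 53 FPKM in DP-3 (adjusted p = 0.0544). FTL, the ferritin light chain, had means of 805 ± 25.6 FPKM in D-2 and 1120 ± 215 FPKM in DP-3 (adjusted p = 0.124). HMOX1 and FTL did not overlap between the groups, yet neither passed the test of edgeR. By DESeq2 their adjusted p was 0.000531 and 0.0457, with changes under 2-fold. SMAD6 and SMAD9 had log2 fold changes of 0.61 and 0.43 (edgeR adjusted p = 0.0851 and 0.308), and CMPK2 of 1.15 (edgeR adjusted p = 0.092). DESeq2 called CMPK2 as upregulated (adjusted p = 0.00758). It gave SMAD6 and SMAD9 adjusted p of 0.00951 and 0.246 and called neither. BMP4, FZD6, DKK1, NFATC2 and LCAT had log2 fold changes between -0.25 and 0.38, with adjusted p of at least 0.315.

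Heat shock proteins, the chaperones of unfolded cytosolic protein, had 3 of 14 members upregulated (21.4%, against 0.722%). HSPA1A was at 23.9, 26.3 and 29.5 FPKM in D-2 and at 124, 92.6 and 97.6 FPKM in DP-3 (3.87-fold, adjusted p = 0.0064). HSPA1B was at 35.8, 38.3 and 47.3 FPKM in D-2 and at 191, 135 and 143 FPKM in DP-3 (3.78-fold, adjusted p = 0.012). These are near-identical copies of the inducible HSP70 gene on chromosome 6, and how reads were shared between them is uncertain. They were at 182 ± 0.171 and 264 ± 3.27 FPKM on day 1 of the printed tissue. CRYAB, a small heat shock protein, rose from a mean of 0.0564 ± 0.0239 FPKM to 0.435 ± 0.202 FPKM (adjusted p = 0.0434). Every D-2 library was under 0.1 FPKM for CRYAB. It was called in 0 of the 3 fits with a library left out that tested it, and not by limma on log2(FPKM + 0.1). The upregulated members were 1, 0 or 2 without D-2 replicate 1, 2 or 3, and without any DP-3 library there were 2. The median log2 fold change of the list was 0.35.

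The ATF4 and unfolded protein response list had 2 of 26 members upregulated (7.69%, against 0.722%). HERPUD1, which helps to clear misfolded protein from the endoplasmic reticulum, was at 10.1, 8.05 and 7.2 FPKM in D-2 and at 15.3, 23.3 and 23.9 FPKM in DP-3 (2.42-fold, adjusted p = 0.0366). DNAJB9, a chaperone of the same compartment, was at 2.75, 2.65 and 2.51 FPKM in D-2 and at 5.15, 6 and 5.73 FPKM in DP-3 (2.09-fold, adjusted p = 0.0198). The libraries of DP-3 were all above D-2 for both genes. Without D-2 replicate 1, 2 or 3 or DP-3 replicate 2 no member was called, without DP-3 replicate 1 there were 3, and without DP-3 replicate 3 there were 2. Among 33 lysosome and vacuolar ATPase genes, GPNMB, a lysosomal glycoprotein, rose 2.4-fold (adjusted p = 0.021) and ATP6V0D2, a subunit of the proton pump, rose 2.2-fold (adjusted p = 0.0491), 6.06% of the list against 0.722%. GPNMB was at 2.28 FPKM in each D-2 library and at 4.45, 6.89 and 5.39 FPKM in DP-3. Neither was called without a D-2 library, 1 member was called without DP-3 replicate 1 or 2, and 2 without DP-3 replicate 3.

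Of 22 immediate early genes, which respond within minutes to growth factors and stress, EGR1 was upregulated (4.55%, against 0.722%). EGR1 was at 1.11, 1.62 and 1.2 FPKM in D-2 and at 7.56, 6.24 and 11.5 FPKM in DP-3 (6.36-fold, adjusted p = 0.0153), with the groups apart. In the list 11 members had an unadjusted p below 0.05 with DP-3 higher (against 12% of all genes), and the median log2 fold change was 0.56. JUNB and JUND, parts of AP-1, had adjusted p of 0.0362 and 0.0499 with log2 fold changes of 0.54 and 0.58. FOS was at 0.268, 0.379 and 0.392 FPKM in D-2 and at 0.527, 0.691 and 0.812 FPKM in DP-3 (adjusted p = 0.129). EGR1 was not called without D-2 replicate 1, 2 or 3. JUNB, JUND and FOS were named after their values were seen.

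Cell cycle genes were lower in DP-3 by small amounts. Of 40 tested, 39 were lower, 29 had an unadjusted p below 0.05 with DP-3 lower (against 10.7% of all genes), and for 29 the groups did not overlap (against 13.4%). The median log2 fold change was -0.31, and it was between -0.33 and -0.28 with any library left out. None changed 2-fold, so edgeR, DESeq2 and limma on log2(FPKM + 0.1) each called 0. By edgeR, 8 members had an adjusted p below 0.05, all lower (against 437 of 18549 genes tested, in either direction). UBE2C, which helps to destroy cyclins in mitosis, was at 171, 164 and 170 FPKM in D-2 and at 136, 125 and 104 FPKM in DP-3 (log2 fold change -0.5 ± 0.0997, adjusted p = 0.054). PCNA, the sliding clamp of DNA replication, was at 152, 128 and 119 FPKM in D-2 and at 121, 112 and 85.1 FPKM in DP-3 (adjusted p = 0.191). UBE2C did not overlap between groups, and PCNA did.

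Respiratory chain genes of the nucleus and of the mitochondrial genome leaned opposite ways. Of 33 nuclear-encoded subunits, 32 were lower in DP-3, 18 had an unadjusted p below 0.05 with DP-3 lower (against 10.7%), and the median log2 fold change was -0.33. No subunit changed 2-fold and edgeR, DESeq2 and limma on log2(FPKM + 0.1) called 0. ATP5F1B, a subunit of ATP synthase, was at 431, 455 and 448 FPKM in D-2 and at 395, 376 and 275 FPKM in DP-3 (adjusted p = 0.139). CYC1, cytochrome c1, was at 111, 110 and 106 FPKM in D-2 and at 90.9, 76.9 and 68.2 FPKM in DP-3 (adjusted p = 0.0607). DP-3 replicate 3 was the lowest library for both, and without it the median was -0.22.

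All 13 protein-coding genes of the mitochondrial genome were higher in DP-3 on average, with a median log2 fold change of 0.94, but most overlapped between groups. No member was a DEG by edgeR, 5 had an unadjusted p below 0.05 with DP-3 higher (against 12% of all genes), DESeq2 called 2 as upregulated (against 2.74%), and limma on log2(FPKM + 0.1) called 0. MT-CO2 was at 2520, 3550 and 4660 FPKM in D-2 and at 4830, 5250 and 9220 FPKM in DP-3 (adjusted p = 0.189). MT-ATP8 was at 3520, 4530 and 6800 FPKM in D-2 and at 5930, 6570 and 16100 FPKM in DP-3 (adjusted p = 0.261). DP-3 replicate 3 was far above all others, and without it the median log2 fold change was 0.32. With the mitochondrial genes left out of the fit, 192 DEGs were called.

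The other genes of the rule were of varied function. On the upregulated side, RAB27B, a GTPase of vesicle secretion, was at 5.33, 6.5 and 6.53 FPKM in D-2 and at 18.6, 17.9 and 19.5 FPKM in DP-3 (3-fold, adjusted p = 0.0064). MALAT1, a long non-coding RNA kept in the nucleus, was at 6.72, 9.27 and 8.9 FPKM in D-2 and at 47.2, 17.9 and 34.4 FPKM in DP-3 (3.93-fold, adjusted p = 0.0391). MALAT1 varied widely among the DP-3 libraries, replicate 2 being the lowest, and it overlaps AP000769 on its own strand. EFCAB14 rose 3.18-fold (adjusted p = 0.0161).

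On the downregulated side, TENM2, a cell adhesion protein of the teneurin family, was at 6.3, 6.58 and 6.53 FPKM in D-2 and at 1.63, 2.65 and 1.29 FPKM in DP-3 (3.57-fold lower, adjusted p = 0.0198). AOX1, aldehyde oxidase, was at 8.27, 6.34 and 5.3 FPKM in D-2 and at 1.95, 2.61 and 1.77 FPKM in DP-3 (3.21-fold lower, adjusted p = 0.0178). The epithelial proteins KRT80 and SBSN were 2.86-fold and 3.1-fold lower (adjusted p = 0.0324 and 0.0369), and both were higher in D-3 (19.9 ± 4.23 and 35.5 ± 6.13 FPKM) than in either group compared. KRT86 was 3.36-fold lower (adjusted p = 0.0411), but it is a near copy of other keratins and overlaps several of them, which makes its counts uncertain. MIR22, the gene of a microRNA hairpin at chromosome 17, 1713903 to 1713987, was at 15.2, 8.82 and 7.22 FPKM in D-2 and at 0.148, 0.0954 and 0.127 FPKM in DP-3. In DP-3 it had no more than 2 estimated counts in a library, under the limit of detection, so no fold is given (adjusted p = 0.0153). Poly(A) libraries do not measure the mature microRNA, and the reads cannot be told from those of the host transcript MIR22HG on the same strand, whose log2 fold change was -0.52 and which was not called.

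Glucose uptake and Wnt genes each gave 1 DEG. SLC2A1, the glucose transporter GLUT1, was at 7.65, 4.91 and 4.37 FPKM in D-2 and at 2.35, 2.45 and 1.88 FPKM in DP-3 (2.58-fold lower, adjusted p = 0.0349), the only DEG of 29 hypoxia and glycolysis genes (3.45%, against 0.318%). WNT5B, a non-canonical Wnt ligand, was at 2.84, 2.96 and 2.42 FPKM in D-2 and at 1.45, 1.56 and 1.07 FPKM in DP-3 (2.05-fold lower, adjusted p = 0.0386), the only DEG of 20 Wnt signaling genes (5%, against 0.318%). Neither was called when any library was left out, although the groups did not overlap. Among 13 osteoblast and bone matrix genes COL1A2 was the only DEG (7.69%, against 0.318%), and it was called only without DP-3 replicate 2 or 3.

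A further 9 lists had 0 DEGs by edgeR. They covered cholesterol synthesis, fatty acid synthesis, MHC class I presentation, metallothioneins, NRF2 targets and glutathione, iron handling, insulin-like growth factors, mesenchymal and EMT factors, and the EGF receptor family. DESeq2 called 3 genes in the EGF receptor family and 0 in the other lists (against 2.74% of all genes up and 0.906% down). Limma on log2(FPKM + 0.1) called 0 in all 9. Members with an unadjusted p below 0.05 were 4 of 24 for cholesterol synthesis, 2 of 13 for fatty acid synthesis, 4 of 18 for MHC class I, 1 of 4 for metallothioneins, 10 of 26 for NRF2 targets, 7 of 16 for iron handling, 5 of 16 for insulin-like growth factors, 4 of 12 for EMT factors and 5 of 9 for the EGF receptor family, against 22.7% of all genes. Their medians lay between -0.11 and 0.19. Single members moved more. In the EGF receptor family log2 fold changes ran from -1.26 to 1.17, the genes called by DESeq2 being the ligands TGFA and NRG1 (lower) and EREG (higher), none of which passed the test of edgeR. By edgeR the adjusted p was below 0.05 for NRG2, AKR1C1 and STC1 (log2 fold changes 0.94, 0.96 and 0.98) and for CDH2, or N-cadherin (-0.68), each under 2-fold. These 7 genes were named after their values were seen. Members with the highest levels were named by the rule. VIM, the main filament protein of mesenchymal cells, was at 972, 961 and 1020 FPKM in D-2 and at 844, 827 and 895 FPKM in DP-3 (adjusted p = 0.231). MT2A, a metal-binding protein, was at 375, 400 and 391 FPKM in D-2 and at 564, 422 and 399 FPKM in DP-3 (adjusted p = 0.382). FTH1, the ferritin heavy chain, was at 349, 329 and 331 FPKM in D-2 and at 532, 420 and 523 FPKM in DP-3 (adjusted p = 0.0762). VIM was lower and FTH1 higher in every DP-3 library, MT2A overlapped between the groups, and none passed the test of edgeR. By DESeq2 the adjusted p was 0.00782 for FTH1, at under 2-fold, 0.172 for VIM and 0.401 for MT2A. SCD, which desaturates fatty acids, was at 58.2, 62.3 and 70 FPKM in D-2 and at 64, 96.2 and 138 FPKM in DP-3 (adjusted p = 0.228).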

How the data were processed

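RNA-seq was made by the study from poly(A) RNA of 18 libraries with a strand-marked kit, and 6 of them, 3 D-2 and 3 DP-3 on day 14, entered the comparison. The submitters' processing notes name cutadapt 1.9, HISAT2 2.0.4, StringTie 1.3.4d, DESeq2 and edgeR. The genome build was not given in the sources used here. The authors deposited FPKM per gene, which scale for transcript length and library size. The authors also deposited estimated counts per gene, which are whole numbers of about 4 per read pair whose derivation was not stated, and which were used as deposited. Counts that share sequence or strand between genes can be split in ways that cannot be checked here.

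Genes with at least 0.1 FPKM in 3 of the 6 libraries were tested with edgeR 4.0.16 in R 4.3.3 (TMM scaling, quasi-likelihood test, no covariate, Benjamini-Hochberg adjustment). A DEG had an adjusted p below 0.05 and a change of at least 2-fold. The test was run on simulated counts, with the spread between libraries set below the 28.3% estimated from these data. Changes were placed only in genes with higher counts. That setting was easier than these data, so it does not vouch for the calls made here. Alternatives used DESeq2 1.42.0, limma 3.58.1 on log2(FPKM + a pseudocount), other scalings and filters, a replicate block and each library left out. Replicates with the same number correlated at between -0.0204 and 0.00711 in their deviations from the group means, so the numbers were not taken to pair samples.

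The named genes were the 12 DEGs of largest change in each direction that were above 0 in every library, reached a mean of 5 FPKM in a group and did not overlap between groups, clone-named and antisense genes left out. Up to 4 DEGs of largest change per list were added, or the 2 members of highest level where a list had none, and the 15 genes the study names. The comparison, the gene lists and this rule were chosen with earlier results of these data known. Promoter sequences came from RefSeq on GRCh38.p14, and entries were matched by gene symbol. The limit of detection covers counting error only, while SDs and SEs hold the spread between libraries. An exact permutation test of 3 libraries against 3 cannot give a p below 0.1 and was not used. All per-sample columns of the deposited tables were mapped to samples, and columns of the other groups were used for their levels only. Some genes that met the rule are not reported here.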

Additional observations from a re-analysis of the deposited data

How the results depend on the processing

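None of the 49 DEGs named by rule changed sign under any alternative in which it was tested. The groups did not overlap for any of them, so a change of sign was hardly possible, and its absence is no evidence of robustness. DESeq2 called 677 genes, 509 up and 168 down. With limma, 57 were called on log2(FPKM + 1), 36 up and 21 down, and 118 on log2(FPKM + 0.01), 86 up and 32 down. Those down were 36 with limma on log2(FPKM + 0.1) and 27 with a single fit of all 18 libraries. With each library left out in turn, the total ranged from 3 to 223, those up from 1 to 136 and those down from 2 to 87. With the replicate block, 15 genes were called, 9 up and 6 down. Libraries with the same number did not deviate together over all genes tested, so the numbers were not taken to pair samples. A correlation over all genes cannot exclude a pairing that acts on some of them. The single fit of all 18 libraries moved the share of calls that were up from 69.4% to 81%. Of 49 DEGs named by rule, 49 were called by DESeq2, 38 by limma on log2(FPKM + 0.1), 22 by the fit of all 18 libraries, 10 with the replicate block and between 3 and 43 with a library left out. The cause of these differences was not tested. Leaving out the mitochondrial genes was chosen after seeing the data, and it gave 192 calls, with all 49 named DEGs among them.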

Other observations

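Some DEGs outside the lists are given here as single genes. All genes named here were chosen after their values were seen, and their families were not counted. IDO1, which starts the breakdown of tryptophan and responds to interferon, was at 0.127, 0.102 and 0.1 FPKM in D-2 and at 0.66, 0.682 and 0.821 FPKM in DP-3 (6.32-fold, adjusted p = 0.0153 by edgeR). TDO2, the other enzyme of that step, was at 1.14, 1.03 and 1.41 FPKM in D-2 and at 3.04, 4.22 and 7.61 FPKM in DP-3 (4.12-fold, adjusted p = 0.041). CYP24A1, which inactivates vitamin D, was at 0.426, 0.429 and 0.588 FPKM in D-2 and at 4.34, 2.24 and 2.57 FPKM in DP-3 (6.17-fold, adjusted p = 0.0167). The DP-3 libraries were above all D-2 libraries for these genes, at low levels. SLC14A1, a urea transporter, was at 0.0615, 0.117 and 0.141 FPKM in D-2 and at 5.12, 2.82 and 2.83 FPKM in DP-3 (31.7-fold, adjusted p = 0.00838).

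Other DEGs were not in the list of interferon-stimulated genes. PARP14 rose 2.11-fold (adjusted p = 0.0161), HERC5 3.07-fold (adjusted p = 0.0336) and HERC6 2.37-fold (adjusted p = 0.0491). C3, the central complement protein, was at 1.76, 1.92 and 2.12 FPKM in D-2 and at 3.95, 5.34 and 5.34 FPKM in DP-3 (2.47-fold, adjusted p = 0.0178). On the downregulated side, TGFBI, a matrix protein induced by TGF-β, was 2.48-fold lower (adjusted p = 0.0147), PDGFA, a growth factor, 2.53-fold lower (adjusted p = 0.0249) and EDN1, endothelin 1, 2.56-fold lower (adjusted p = 0.0386).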
